A study of Mus musculus with 4 samples.

Results

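PD-1 is a coinhibitory receptor of activated lymphocytes, and the genes described here are its own gene, Pdcd1, the ligand genes Cd274 (PD-L1) and Pdcd1lg2 (PD-L2), Cd80, whose protein binds PD-L1 beside CD28 and CTLA-4, and the phosphatase genes Ptpn11 (SHP-2) and Ptpn6 (SHP-1). These 6 genes were taken by name from the 22911 genes that the array's named probes measure, and they are read by 11 of its 56605 probes. On binding PD-L1 or PD-L2, PD-1 is phosphorylated on its cytoplasmic tail and recruits SHP-2, and to a lesser degree SHP-1, which dephosphorylate CD28 and proximal T cell receptor signalling proteins. Pdcd1 is transcribed after T cell receptor stimulation under NFAT and other factors and stays on in chronically stimulated cells. PD-L1 is carried by many cell types and is raised by interferon gamma, whereas PD-L2 and CD80 are best known from dendritic cells and macrophages.

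CD8 T cells were sorted by flow cytometry from the spleen and lymph nodes of C57BL/6 mice, untreated, of the genotype PD-1-/- and aged 1 to 3 months, and total RNA of each sorted subset was hybridised to a single-colour Agilent array. The 4 subsets were P4 (CD44low CD62Llow), P3 (CD44high CD62Llow), P2 (CD44high CD62Lhigh) and P1 (CD44low CD62Lhigh). CD44 is an adhesion receptor that is dense on antigen-experienced cells, and CD62L is the homing receptor for lymph nodes. All 4 subsets lacked PD-1, no subset from mice with PD-1 was analysed here, and the sources used here do not give the number of mice behind each RNA. Each subset has 1 array, so there is no replicate check and no p-value below, and since all 4 arrays lay on 1 slide, the subset and its position on the slide cannot be told apart.

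A level below is the log2 of a probe's processed signal minus the log2 of the 75th percentile of its array, which was 315.1 in P4, 550.1 in P3, 332.3 in P2 and 333.1 in P1. Differences of levels are log2 fold changes, and a gene was called by size alone when its difference reached 1, a 2-fold change. Probes well above background numbered between 27827 in P2 and 30811 in P3. The only error available is the scatter of repeated spots of a probe on 1 array. It gives a 95% half-width of 0.18 for a difference between levels of 0 or more, 0.37 between levels of -3 to 0 and 0.63 below -3. It covers spot noise and leaves out variation between mice, sorts and labellings.

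All 9 T cell markers on the array were well above background in all subsets, and 0 of 9 differed by 2-fold in any pair. Over all measured genes, 1.77% to 12.5% passed 2-fold in 1 direction, depending on the pair. Cd8b1, a chain of the CD8 coreceptor, lay at 8.01 in P4, 7.95 in P3, 8.05 in P2 and 8.45 in P1. The P3 array also carried transcripts that serve as markers of other cell types. Of 16 conventional dendritic cell markers, 8 were well above background in P4, 15 in P3, 8 in P2 and 5 in P1. Clec9a, Xcr1, Batf3, Cd209a and Clec10a, markers in this list, were well above background in P3 and not in P4, P2 or P1. Others in it were not confined to P3. Flt3 lay at -3.30 in P4, 2.21 in P3 and -3.99 in P2, and Zbtb46 at -3.86 in P4, -2.42 in P3 and -3.93 in P2. These values, and those of Itgax in the same subsets, were well above background. Wdfy4, Apol7c and Plbd1 were well above it in all 4 subsets, with the highest level in P3.

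Pdcd1 and Pdcd1lg2, the pair that were at least 2-fold higher in both CD62Llow subsets than in both CD62Lhigh subsets, and Cd274, which neighbours Pdcd1lg2 and did not reach 2-fold in any pair, are shown with their promoters. RefSeq promoter sequences of build GRCm38.p6, from 250 bases before to 50 bases after the start site, lie at chr1:94052504-94052803 (minus strand) for Pdcd1, chr19:29410669-29410968 (plus strand) for Pdcd1lg2 and chr19:29367188-29367487 (plus strand) for Cd274. They are written 5′ to 3′, and capitals mark the NFAT core (GGAAA) and the GC box (GGGCGG), searched on both strands.
Pdcd1: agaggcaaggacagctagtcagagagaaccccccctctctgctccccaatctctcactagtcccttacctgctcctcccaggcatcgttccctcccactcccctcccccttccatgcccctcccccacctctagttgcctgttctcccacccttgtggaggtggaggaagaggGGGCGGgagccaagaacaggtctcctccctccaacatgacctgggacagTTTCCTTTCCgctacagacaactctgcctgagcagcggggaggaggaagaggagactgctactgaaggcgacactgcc
Pdcd1lg2: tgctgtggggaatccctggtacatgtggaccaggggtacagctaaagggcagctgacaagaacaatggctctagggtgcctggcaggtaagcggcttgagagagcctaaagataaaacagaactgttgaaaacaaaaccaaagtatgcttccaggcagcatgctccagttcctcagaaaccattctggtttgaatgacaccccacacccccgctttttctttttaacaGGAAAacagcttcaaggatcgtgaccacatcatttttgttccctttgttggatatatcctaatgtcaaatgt
Cd274: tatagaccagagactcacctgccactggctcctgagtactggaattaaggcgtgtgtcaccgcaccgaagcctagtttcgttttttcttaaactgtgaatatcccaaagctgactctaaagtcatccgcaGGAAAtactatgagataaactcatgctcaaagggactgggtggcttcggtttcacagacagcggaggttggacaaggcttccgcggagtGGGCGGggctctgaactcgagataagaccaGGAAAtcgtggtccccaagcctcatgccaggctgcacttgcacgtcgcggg
The Pdcd1 promoter holds 2 adjoining NFAT cores on the opposite strand, at -28 and -23 from the start site, and a GC box at -77. The Pdcd1lg2 promoter holds 1 NFAT core at -22. The Cd274 promoter holds NFAT cores at -120 and -1 and a GC box at -31. These letters are common, since the NFAT core occurs in 61.3% and the GC box in 35.9% of 27025 mouse promoters of this length. An AP-1 site (TGANTCA, in 7.93% of promoters), a GAS site, an element of interferon response (TTCNNNGAA, 8.47%) and a spaced pair of IRF half-sites (3.49%) were not in these 3 windows.

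Pdcd1 had processed signals of 1473 in P4, 2708 in P3, 57.57 in P2 and 48.87 in P1, and its probe was well above background on each array. As levels these were 2.23 in P4, 2.30 in P3, -2.53 in P2 and -2.77 in P1. Signal from the targeted gene was therefore measured in all 4 subsets of PD-1-/- mice. Where the deletion lies relative to the stretch that the probe reads was not examined, so the signal checks neither genotype nor labels.

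The Pdcd1 levels fell into a high pair, both CD62Llow, and a low pair, both CD62Lhigh. P4 was 27.0-fold higher than P2 (log2 4.75 ± 0.30, the half-width of spot noise) and 31.9-fold higher than P1 (4.99 ± 0.30). P3 was 28.4-fold higher than P2 (4.83 ± 0.30) and 33.5-fold higher than P1 (5.07 ± 0.30). Within the pairs, P4 minus P3 was -0.07 ± 0.18 and P2 minus P1 was 0.24 ± 0.37, both inside spot noise. The P4 minus P3 value moved beyond it, to -0.65, when signals were corrected by their neighbouring spots and to -0.27 when that correction was centred on the array median. Under normexp background correction, which adds an offset to every signal, the 4 large differences lay between 3.60 and 3.93. In RNA of a whole subset, fewer cells with the transcript and less transcript per cell cannot be told apart.

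Few genes differed as much as Pdcd1. Counting Pdcd1 itself, 14 of 13125 measured genes (0.107%) were as far above P2 in P4, and 29 of 13160 (0.22%) were as far above P1. From P3 the numbers were larger, at 69 of 14012 genes (0.492%) against P2 and 121 of 14089 (0.859%) against P1. The gap between CD62Llow and CD62Lhigh was nearly the same at both CD44 levels, 4.99 at low CD44 (P4 minus P1) and 4.83 at high CD44 (P3 minus P2).

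Spots near that of Pdcd1 on the array were examined, because the level rests on 1 spot per array. In P4, 6 of 21 neighbouring spots exceeded the other 3 arrays at the same spot by 2-fold or more, with signals of 13.3 to 177.7, while 0.85% of spots on that array were so raised. Subtracting the highest of them lowered the P4 level of Pdcd1 to 2.04, against 2.23 as measured. In P2, 3 of 17 neighbours were raised, at 128.6 to 242.0, above the Pdcd1 signal there. In P3, 1 of 20 neighbours was raised, with a signal of 2873.8, above that of Pdcd1 there, and in P1, 0 of 21 were raised.

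**Figure D1:**
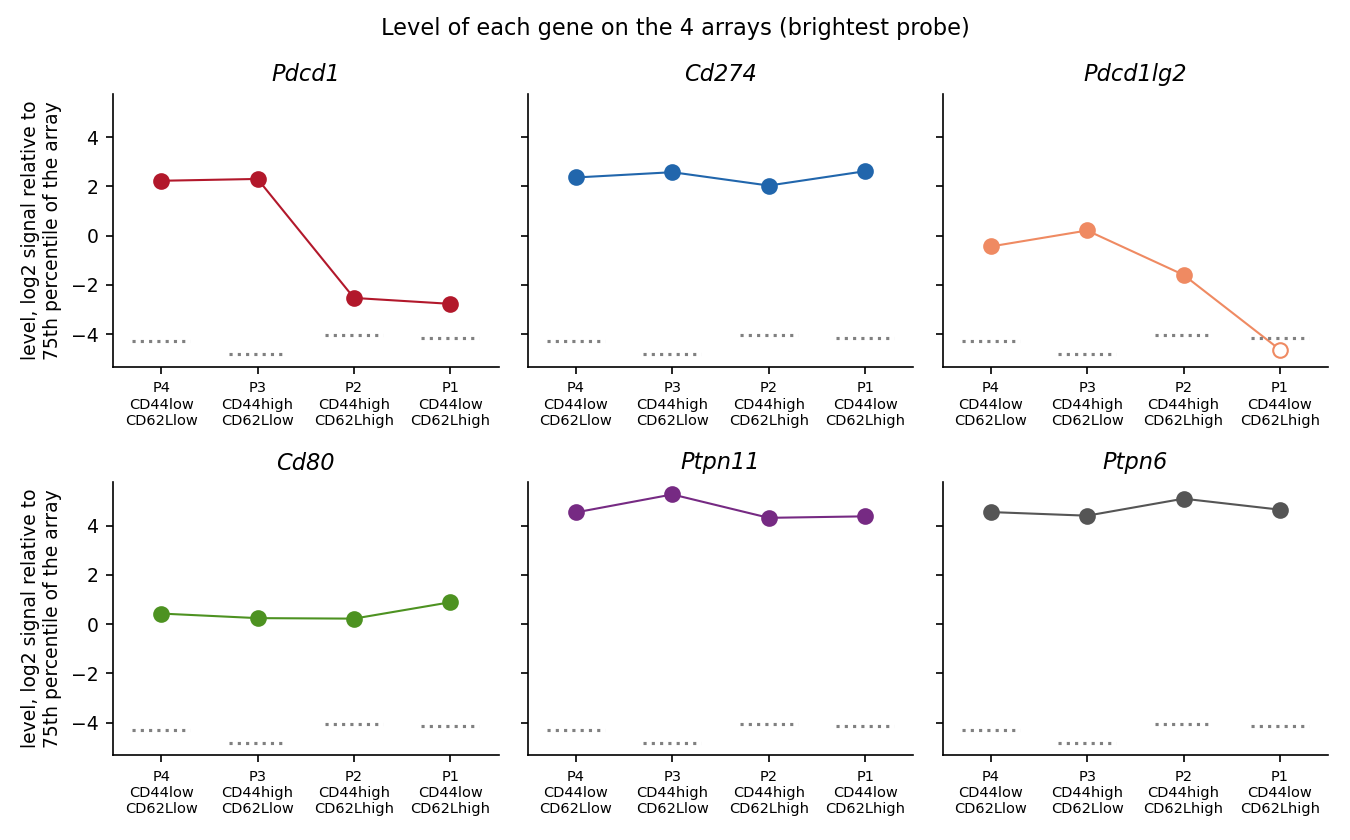
Level of the brightest probe of each gene on the 4 arrays, as log2 processed signal relative to the 75th percentile of the array. Filled points are well above background, open points are not, and dotted lines mark the lowest level well above background on each array; Pdcd1 lies at 2.23 and 2.30 in P4 and P3 and below -2 in P2 and P1, while Cd274 stays between 2.03 and 2.61.

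Cd274, the gene of PD-L1, had processed signals of 1616 in P4, 3274 in P3, 1358 in P2 and 2039 in P1. Its levels were 2.36 in P4, 2.57 in P3, 2.03 in P2 and 2.61 in P1. No pair differed by 2-fold, and the order from high to low was P1, P3, P4 and P2. P3 and P1, next to each other in that order, differed by less than spot noise (P3 minus P1 -0.04 ± 0.18), and the sign of this difference turned under quantile normalization, among other settings. P2 was the lowest, with P4 minus P2 at 0.33 ± 0.18, P3 minus P2 at 0.54 ± 0.18 and P2 minus P1 at -0.58 ± 0.18.

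Pdcd1lg2, the gene of PD-L2, had processed signals of 232.0 in P4, 635.4 in P3, 110.1 in P2 and 13.45 in P1, where it was not well above background. Its levels were -0.44 in P4, 0.21 in P3, -1.59 in P2 and -4.63 in P1. The order was P3, P4, P2 and P1, with both CD62Llow subsets above both CD62Lhigh subsets. P4 was 2.22-fold higher than P2 (1.15 ± 0.37), and P3 was 3.49-fold higher than P2 (1.80 ± 0.30). The P4 value against P2 fell to 0.76, short of 2-fold, under another background correction (normexp). Because P1 gives only a bound, differences from it were set against the lowest signal well above background on that array. They were at least 13.0-fold for P4, at least 20.3-fold for P3 and at least 5.84-fold for P2. Under normexp the log2 differences were 1.80 for P4, 2.36 for P3 and 1.04 for P2. P4 minus P3 was -0.65 ± 0.30, beyond spot noise and short of 2-fold.

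Cd80 was read by 3 probes that did not behave alike. The brightest probe lay at 0.43 in P4, 0.24 in P3, 0.22 in P2 and 0.89 in P1, all well above background. P1 was the highest on this probe, with P4 minus P1 at -0.46 ± 0.18, P3 minus P1 at -0.64 ± 0.18 and P2 minus P1 at -0.67 ± 0.18. P4, P3 and P2 differed among themselves by 0.02 to 0.21, close to spot noise. The second probe lay at -3.89 in P4 and -1.56 in P3 and was not well above background in P2 (-6.33) or P1 (-6.43). On it P4 was 5.01-fold lower than P3 (-2.33 ± 0.52), and P3 was at least 5.62-fold higher than P2 and at least 5.96-fold higher than P1.

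The third Cd80 probe was well above background only on the P3 array. Its processed signal was 12.73 in P4, 95.16 in P3, 4.642 in P2 and 4.331 in P1. Here P3 was at least 3.40-fold higher than P4, at least 2.87-fold higher than P2 and at least 3.05-fold higher than P1. The dim probes of Cd80 thus gave P3 the highest level and the bright one gave it to P1. Taking the mean over the probes turned P3 minus P1 to 1.18 and P4 minus P3 to -1.30. All 3 probes carry the same RefSeq accession (NM_009855), and which transcripts each one reads was not examined.

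**Figure D2:**
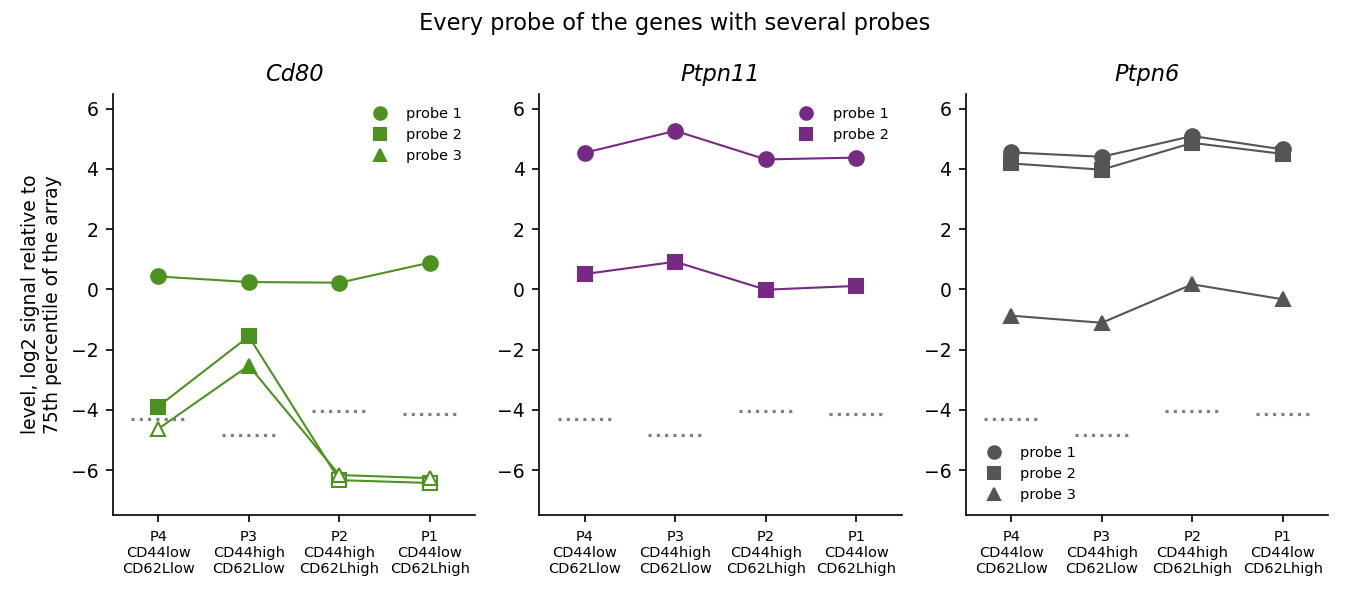
Levels of every probe of Cd80, Ptpn11 and Ptpn6 by subset, on the scale of log2 signal relative to the 75th percentile of the array; filled points are well above background, open points are not, and dotted lines mark the lowest level well above background. Both dim Cd80 probes peak in P3 while the bright one is highest in P1; the probes of Ptpn11 and those of Ptpn6 run in parallel.

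Most markers of antigen-presenting cells were higher in P3 than in P4, as Pdcd1lg2 and the dim Cd80 probes were, by unlike amounts. P4 minus P3 was -0.65 for Pdcd1lg2. The median was -4.92 over 15 conventional dendritic cell markers and -4.60 over 7 MHC class II genes. Cd74, the invariant chain of MHC class II, lay at 1.36 in P4, 6.20 in P3, 0.56 in P2 and 0.12 in P1. The summed linear level of 7 MHC class II genes, relative to the 75th percentile, was 14.5 in P4, 312 in P3, 10.1 in P2 and 9.3 in P1. Of 16 conventional dendritic cell markers, 14 of the 15 measured were lower by 2-fold or more in P4 than in P3 (all genes 9.07%). In P3, 13 of 15 were higher by 2-fold or more than in P1 (all genes 12.5%). In P4 against P1, 5 of the 8 measured were higher by 2-fold or more and 0 lower (all genes 5.43% and 1.77%). In P2 against P1, 5 of 8 were higher and 0 lower (all genes 4.76% and 2.52%). Pdcd1lg2 was also higher by 2-fold or more in both of these pairs. The summed level of the conventional dendritic cell markers was 153 in P4, 209 in P3, 163 in P2 and 228 in P1. Most of it in P4, P2 and P1 came from Ccr7, a chemokine receptor that naive T cells carry too (7.15 in P4, 5.93 in P3, 7.27 in P2 and 7.82 in P1). In P3, Plbd1 (5.25), Apol7c (5.21) and Irf8 (4.90) added to it. In P4, Clec9a, Xcr1, Batf3, Cd209a, Clec10a, Sirpa, Fscn1 and Ccl22 were not well above background.

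Macrophage and monocyte markers were well above background for 7 of 15 genes in P4, 14 in P3, 8 in P2 and 4 in P1. Their summed level was 64.9 in P4, 187 in P3, 341 in P2 and 143 in P1, largely from Ly6c2, which memory CD8 T cells carry too. Adgre1, C1qa, C1qc, Lyz2 and Mrc1 were well above background in P3 alone. B cell markers were above it for 7 of 12 genes in P4, 10 in P3, 5 in P2 and 4 in P1, with summed levels of 7.24 in P4, 13.6 in P3, 7.43 in P2 and 8.23 in P1. Most of each sum came from Cd79b (2.66 in P4, 3.10 in P3, 2.64 in P2 and 2.89 in P1). Pax5 and Blk were not well above background in any subset. Plasmacytoid dendritic cell markers were above it for 6 of 8 genes in P4, 8 in P3, 6 in P2 and 5 in P1, with sums of 87.6 in P4, 72.8 in P3, 98.8 in P2 and 91.8 in P1. These sums came largely from Siglech (6.15 in P4, 4.88 in P3, 6.30 in P2 and 6.12 in P1) and Bst2. By gene, 6 of the 8 were higher by 2-fold or more in P3 than in P1 and 1 was lower, with a median of 4.30. The shares of all genes were 12.5% and 6.98%. Natural killer cell markers were above background for 6 of 9 genes in P4, 7 in P3, 6 in P2 and 3 in P1, with sums of 192 in P4, 206 in P3, 26.4 in P2 and 4.54 in P1. In P4 and P3 the sum came largely from Gzma (7.44 in P4 and 7.33 in P3). By gene, 6 of 6 measured were higher by 2-fold or more in P4 than in P1 (median 3.30, all genes 5.43%). Against P1, 6 of 7 were so in P3 (median 5.50, all genes 12.5%) and 6 of 6 in P2 (3.67, 4.76%). Ncr1 and Ncam1 were not above background in any subset. Stromal and endothelial markers were above it for 2 of 8 genes in P4, 6 in P3, 1 in P2 and 1 in P1. Whether such cells were present, and their part in the levels of Pdcd1 and its ligands, was not tested. In P4 minus P2, the median difference was -0.39 over 8 conventional dendritic cell markers and 0.80 over 7 MHC class II genes. In P4 minus P1 these medians were 1.54 and 1.24, and in P2 minus P1 they were 1.71 and 0.44.

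**Figure D3:**
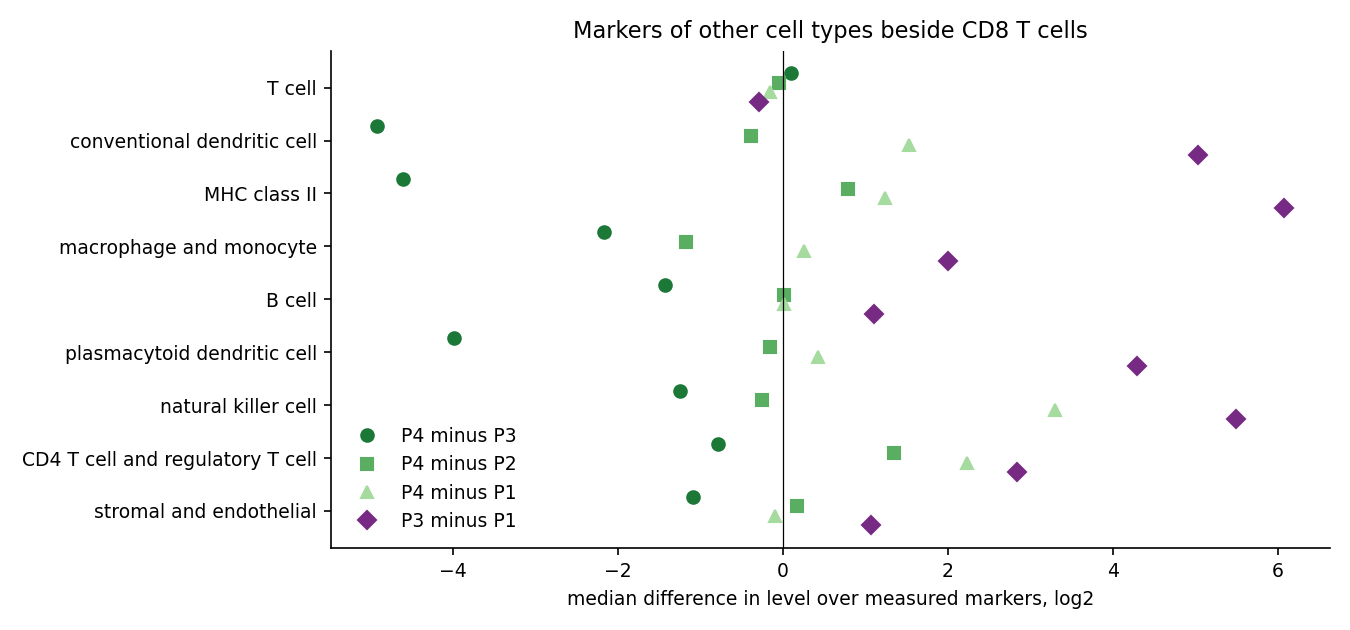
Median difference in level (log2, horizontal) over the measured genes of each marker list, for P4 minus P3, P4 minus P2, P4 minus P1 and P3 minus P1; differences from a value not well above background enter as bounds. The conventional dendritic cell list has a median of -4.92 for P4 minus P3 and 5.04 for P3 minus P1, while the T cell list lies between -0.29 and 0.11.

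Ptpn11, the gene of SHP-2, lay at 4.53 in P4, 5.26 in P3, 4.31 in P2 and 4.37 in P1 on its brighter probe. The second probe lay at 0.51 in P4, 0.92 in P3, -0.01 in P2 and 0.11 in P1. P3 was the highest on both probes. On the brighter one P3 minus P2 was 0.95 ± 0.18, P3 minus P1 was 0.89 ± 0.18 and P4 minus P3 was -0.73 ± 0.18. The first 2 values lay just under 2-fold and passed it under quantile normalization, at 1.11 each, as did the authors' deposited values, at 1.11 each. P4 minus P2 was 0.22 ± 0.18, and P4 minus P1 was 0.16 ± 0.18, inside spot noise.

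Ptpn6, the gene of SHP-1, lay at 4.55 in P4, 4.40 in P3, 5.09 in P2 and 4.64 in P1 on its brightest probe. The second probe lay at 4.18 in P4, 3.97 in P3, 4.86 in P2 and 4.50 in P1. The third, which carries another accession (NM_013545), lay at -0.87 in P4, -1.11 in P3, 0.17 in P2 and -0.33 in P1. All 3 probes gave the order P2, P1, P4 and P3 from high to low. On the brightest probe P4 minus P2 was -0.54 ± 0.18 and P3 minus P2 was -0.69 ± 0.18, and P2 minus P1 was 0.45 ± 0.18. On the third probe P4 was 2.06-fold lower than P2 (-1.04 ± 0.30) and P3 2.42-fold lower (-1.28 ± 0.30). P4 minus P3 (0.15), P4 minus P1 (-0.10) and P3 minus P1 (-0.24) changed sign when signals were corrected by their neighbouring spots. That correction also moved the median of all genes in these pairs. It went from 0.02 to -0.35 for P4 minus P3, from -0.07 to 0.04 for P4 minus P1 and from -0.10 to 0.38 for P3 minus P1. The lowest levels of Ptpn6 and the highest levels of Ptpn11 thus fell on the same array, P3.

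Counted over the 6 genes by their brightest probe, 0 differed by 2-fold or more between P4 and P3, where 3.98% of all measured genes were higher and 9.07% lower. In P4 against P2, 2 of 6 were higher (Pdcd1 and Pdcd1lg2) and 0 lower, with 4.78% and 3.45% of all genes. In P4 against P1 the same 2 were higher and 0 lower, with 5.43% and 1.77% of all genes. In P3 they were again the 2 higher ones against P2, with 10.6% of all genes higher and 5.61% lower, and against P1, with 12.5% and 6.98%. In P2 against P1 only Pdcd1lg2 was higher and 0 were lower, with 4.76% and 2.52% of all genes. These pairs share arrays, and 6 genes are too few to read a share from.

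**Figure D4:**
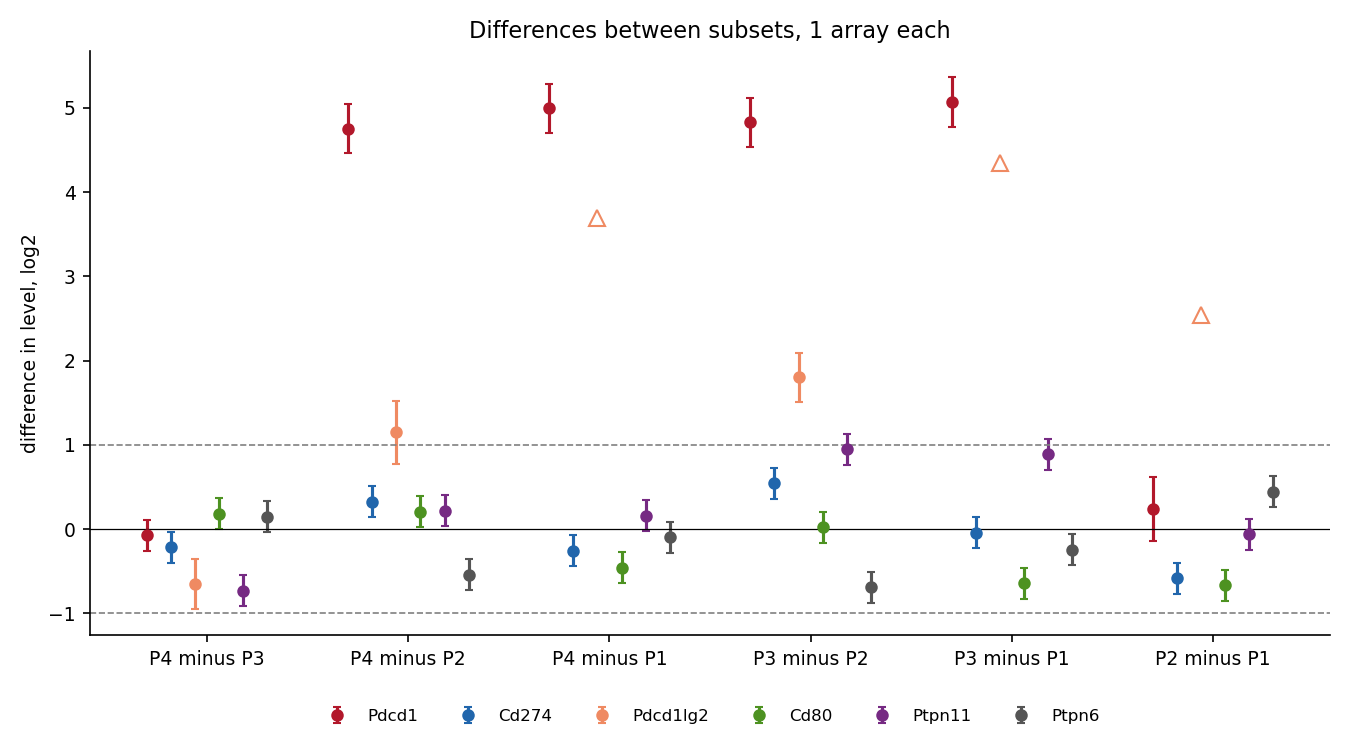
Difference in level (log2) of the brightest probe of each gene for each pair of subsets, 1 array each. Bars are the 95% half-width of spot noise, open triangles are lower bounds against a value not well above background, and dashed lines mark 2-fold; Pdcd1 lies between 4.75 and 5.07 in the pairs that cross CD62L and near 0 within them.

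Genes with the pattern most like that of Pdcd1 were taken by the root mean square distance between levels centred on each gene's mean over the 4 arrays. The candidates were 11038 genes well above background on all of these arrays. Genes with provisional symbols, such as those ending in Rik or opening with LOC, were left out here and for Pdcd1lg2. The nearest was Aplp1, an amyloid precursor-like protein, at a distance of 0.23, with levels of 1.28 in P4, 1.44 in P3, -2.88 in P2 and -3.34 in P1. It was followed by Septin4 (distance 0.37), a septin GTPase, Cela1 (0.41), an elastase, Hic1 (0.44), a zinc finger repressor, and Maf (0.45), a transcription factor of activated T cells. Maf lay at 2.0 in P4, 2.58 in P3, -1.63 in P2 and -1.97 in P1. All 5 were high in the CD62Llow subsets and low in the CD62Lhigh ones, which follows from how they were chosen.

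For Pdcd1lg2 the nearest of 11039 genes were Srgap3 (distance 0.16), a Rac GTPase-activating protein, Il10ra (0.25), the ligand-binding chain of the interleukin 10 receptor, Cd38 (0.26), an ectoenzyme that consumes NAD, Lsr (0.30), a lipoprotein receptor, and Setbp1 (0.30). Il10ra lay at 3.85 in P4, 4.68 in P3, 2.93 in P2 and 0.82 in P1. Cd38 lay at 0.79 in P4, 2.05 in P3, -0.38 in P2 and -2.84 in P1. Like Pdcd1lg2, these genes were highest in P3 and lowest in P1, a shape for which they were chosen. Pdcd1lg2 was not well above background in P1. It entered there at -4.14, the lowest level well above background on that array, so the likeness in P1 is to a bound. A likeness over 4 arrays is a description of these arrays.

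**Figure D5:**
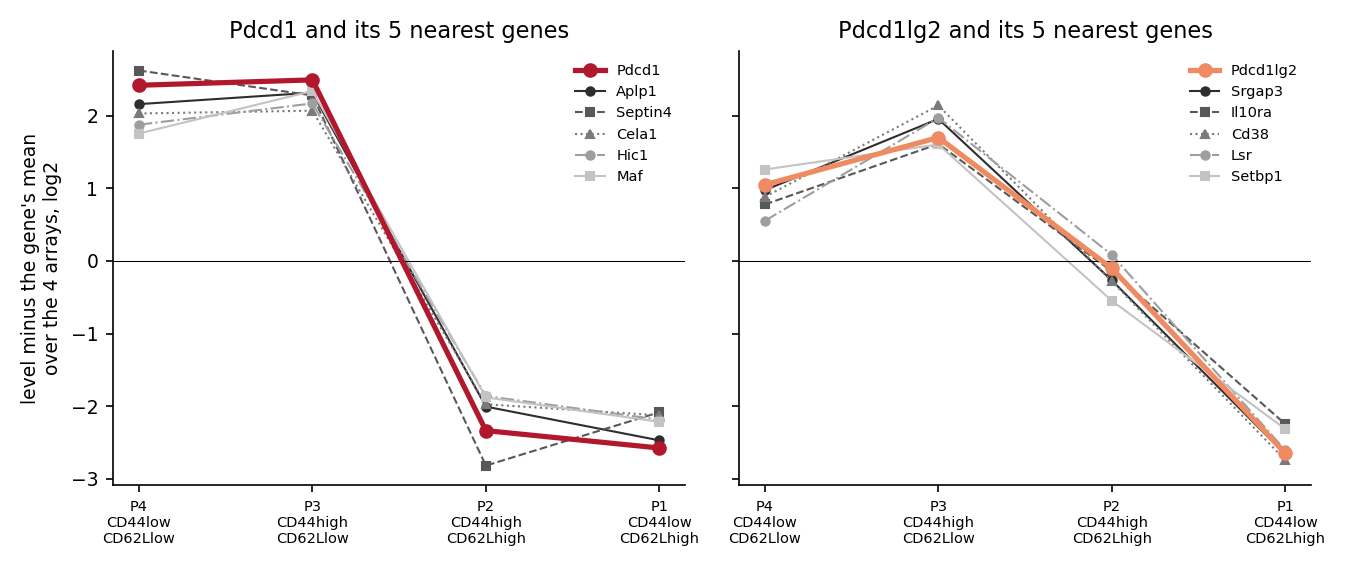
Levels of Pdcd1 (left) and Pdcd1lg2 (right) with their 5 nearest genes, each centred on its own mean over the 4 arrays (log2). Pdcd1 and its neighbours form a step between P3 and P2, whereas Pdcd1lg2 and its neighbours peak in P3 and decline to P1. The P1 value of Pdcd1lg2 is drawn at the lowest level well above background on that array.

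Of 10 other receptors and ligands around the PD-1 axis, 7 were measured, and Rgmb, Cd276 and Vtcn1 were not well above background in any subset. Ctla4, the coinhibitory receptor that competes for CD80, lay at 1.28 in P4, 2.23 in P3, -0.48 in P2 and -0.91 in P1. Of the 7 it alone passed 2-fold upwards in P4 against P2 (1.77) and against P1 (2.19). Over all genes, 4.78% did so against P2 and 5.43% against P1. Cd86, the other ligand of CD28 and CTLA-4, lay at 1.00 in P4, 1.58 in P3, 0.11 in P2 and 1.30 in P1. Tnfrsf14, the partner of BTLA, was higher in P4 than in P3 (1.39). Markers of CD4 and regulatory T cells, which also carry Ctla4, were well above background for 6 of 7 genes in P4, P3 and P2 and 4 in P1. Their summed levels were 10.0 in P4, 13.5 in P3, 4.01 in P2 and 2.48 in P1. Ctla4 is itself among these 7 genes, so the sums are no separate measure beside it. Ikzf2 is another, at 2.18 in P4, 2.07 in P3, 0.77 in P2 and -0.47 in P1. Cd4 lay at 0.13 in P4, 0.76 in P3, 0.15 in P2 and 0.13 in P1, and Cd40lg was not well above background in any subset. Foxp3 lay at -1.97 in P4, -1.03 in P3, -3.27 in P2 and -2.97 in P1, and the part of such cells in Pdcd1 or Ctla4 was not tested.

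Of 20 regulators of Pdcd1 transcription, 5 were higher by 2-fold or more in P4 than in P1 and 0 were lower, with a median of 0.22 against -0.07 over all genes. They were Tbx21 (2.81), Prdm1 (2.64), Eomes (1.99), Nr4a2 (1.80) and Tox (1.11). Over all measured genes, 5.43% were higher in that pair and 1.77% lower. Against P2, 2 regulators were higher in P4, Tox (1.55) and Prdm1 (1.43), and 2 lower, Tbx21 (-1.31) and Nfatc2 (-1.01). The shares of all genes there were 4.78% and 3.45%. Tox, a factor tied to exhausted T cells, lay at 3.45 in P4, 4.35 in P3, 1.90 in P2 and 2.34 in P1, and Prdm1 (BLIMP-1) at 2.01 in P4, 3.00 in P3, 0.58 in P2 and -0.62 in P1. Both were thus higher in the CD62Llow subsets, as Pdcd1 was. Nfatc1, an inducer of Pdcd1, lay between 2.41 and 2.83 in all 4 subsets.

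Against P3, P4 was higher for Satb1 (2.10), a repressor of Pdcd1, and Bach2 (1.11), and lower for Tbx21 (-1.63), which is known as a repressor of Pdcd1 in mouse CD8 T cells. Satb1 lay at 5.43 in P4, 3.33 in P3, 5.71 in P2 and 5.91 in P1. It was therefore lowest in P3. In P3 against P1, 6 of 20 regulators were higher and 3 lower, beside 12.5% and 6.98% of all genes.

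Of 15 genes of the interferon response and of PD-L1 handling, 3 passed 2-fold upwards in P4 against P1 and 0 downwards. The shares of all genes were 5.43% and 1.77%. Ifng, the inducer of PD-L1, lay at 5.64 in P4, 6.97 in P3, 5.20 in P2 and 1.22 in P1. Its relation to the Cd274 level was not tested. Ifngr2, a chain of its receptor, lay at 1.74 in P4, -0.28 in P3, -1.0 in P2 and 2.26 in P1. The other receptor chain, Ifngr1, lay at 4.39 in P4, 4.79 in P3, 5.70 in P2 and 4.76 in P1, highest in P2, where Ifngr2 was lowest. Irf1, which activates Cd274, lay between 6.55 and 7.15, and Cmtm6, which holds PD-L1 at the cell surface, between 4.18 and 4.89.

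Of 21 genes of proximal T cell receptor and CD28 signalling, the path on which SHP-2 and SHP-1 act, 0 differed by 2-fold or more between P4 and P3, P2 or P1. Over all genes, 3.98% were higher and 9.07% lower in P4 against P3. The shares were 4.78% and 3.45% against P2, and 5.43% and 1.77% against P1. Cd28 itself lay at 4.35 in P4, 4.67 in P3, 5.18 in P2 and 4.44 in P1. In P3 against P1, Fyn was higher (1.20), and Plcg1 (-1.03) and Pag1, which was not well above background in P3, were lower.

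Among 21 adaptors and receptors that recruit SHP-1 or SHP-2, 10 of the 20 measured were lower by 2-fold or more in P4 than in P3 and 2 were higher, with a median of -0.90 against 0.02 over all genes. The shares of all genes were 9.07% lower and 3.98% higher. Klrg1, an inhibitory receptor of effector cells, lay at 0.10 in P4 and 2.81 in P3 and was not well above background in P2 or P1. Lair1, a collagen receptor, lay at -1.12 in P4, 1.32 in P3, 0.97 in P2 and -0.04 in P1, lowest in P4. Pirb, known from myeloid and B cells, lay at -2.53 in P4, 2.93 in P3 and -3.30 in P2. In P1 it lay at -4.79, not well above background. Sirpa, a receptor of myeloid cells, was well above background in P3 only. These 2 genes move with the antigen-presenting cell markers given above.

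Of 30 other lymphocyte phosphatases on the array, 7 of 29 measured were lower by 2-fold or more in P4 than in P3 and 0 were higher. Over all measured genes, 9.07% were lower and 3.98% higher. Against P2, 2 of 28 phosphatases were higher in P4 (Ptpn13 and Ptprj), and against P1, 4 of 28 (these and Inppl1 and Ptprs). The shares of all genes were 4.78% against P2 and 5.43% against P1. Ptpn13, a large cytosolic tyrosine phosphatase, lay at 0.91 in P4, 2.23 in P3, -1.96 in P2 and -3.74 in P1. Ptprj (CD148) lay at -1.48 in P4 and 0.43 in P3 and was not well above background in P2 or P1. Ptpn22, which restrains T cell receptor signalling beside SHP-1, lay between 4.58 and 4.96. In P3 against P1, 12 of 29 phosphatases were higher and 1 lower, beside 12.5% and 6.98% of all genes.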

How the data were processed

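Total RNA of 4 sorted CD8 T cell subsets was measured on 1 single-colour array each, with Cy3 as label, per the labels' protocols. The authors extracted spot intensity with Agilent Feature Extraction 11.0.1.1, per the file headers and the submitters' processing notes, and its processed signal is background-subtracted. Their deposited table gives 26188 probes as log2 values, whose median is 8.85 in every column, with a correlation of at least 0.999 with the processed signal of the same array. Its scale was thus read as log2 without centring of genes, and the sources used here do not name the tool.

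Levels were log2 processed signal minus the 75th percentile over non-control probes. Outlier spots were left out (122 to 152 per array), and 0 spots were saturated. RefSeq accessions named 32994 of 56605 probes (58.3%) through a gene table of GRCm38.p6. The probe with the highest mean stood for its gene. Genes were measured in a pair when either array showed them well above background. A value not well above background was replaced, where lower, by the dimmest signal that array showed well above background, and the difference is then a bound. With 1 array per subset nothing was tested, and the number of arrays limits the precision.

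The 6 genes were named with all their probes, the lists by up to 3 genes of largest difference per pair and direction and by genes beside a result, and Pdcd1 and Pdcd1lg2 with their 5 nearest genes. Members, lists and alternatives were chosen with earlier results of these data known. A spot was called raised when it exceeded the other 3 arrays at its place by 2-fold or more, and neighbours lay within 32 position units. Normexp correction (offset 50) used median signals, since mean signals were not used here. Counting was tested on simulated data. Python 3.11.15, numpy 2.4.6, pandas 2.3.3, scipy 1.17.1, matplotlib 3.10.9, R 4.3.3 and limma 3.58.1 were used.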

Additional observations from a re-analysis of the deposited data

Results flagged for a closer look

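Cd274 moved in opposite directions with CD62L at low and at high CD44, a difference between the effects that was not tested, since each subset has 1 array. At low CD44 the CD62Llow subset was lower (P4 minus P1, -0.26 ± 0.18), and at high CD44 it was higher (P3 minus P2, 0.54 ± 0.18). The same 4 values seen across CD44 gave a higher level in the CD44high subset at low CD62L (P3 minus P4, 0.21 ± 0.18) and a lower one at high CD62L (P2 minus P1, -0.58 ± 0.18). None of these reached 2-fold, and the errors cover spot noise only.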

How the results depend on the processing

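No paired analysis was possible because each subset has 1 array, and for the same reason no array could be left out of a group. Of 60 alternative values for Pdcd1, 46 moved by less than 1 SD of spot noise in a difference, 14 moved further, some of them within the 95% half-width given in the report, and 0 reversed. Normexp correction gave -0.17 for P4 minus P3, 3.60 for P4 minus P2, 3.76 for P4 minus P1, 3.77 for P3 minus P2 and 3.93 for P3 minus P1. Correction by neighbouring spots gave -0.65, 4.54, 4.70, 5.19 and 5.36 for the same pairs. It also moved the median of all genes to -0.35 for P4 minus P3, 0.11 for P4 minus P2, 0.45 for P3 minus P2 and 0.38 for P3 minus P1. A version centred on the array median, added after seeing the data, gave -0.27 for P4 minus P3, 4.43 for P4 minus P2, 4.59 for P4 minus P1 and 4.85 for P3 minus P1.

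Of 291 alternative values for the other 5 genes, 224 moved by less than 1 SD, 67 moved further and 0 that had passed 2-fold reversed. Of 132 counts over the 6 genes, 11 moved by over 1.5 times. A further 7 came to 3 genes higher instead of 2, for P3 minus P2 and P3 minus P1 under quantile normalization and correction by neighbouring spots and for P3 minus P2 under normexp (each with Ptpn11), and for both pairs with the mean over probes (with Cd80). For P4 minus P2, 1 gene was higher under normexp, in the authors' deposited values, where Pdcd1lg2 was not listed, and at 4-fold. For P4 minus P1, 1 was higher in the deposited values and where both arrays had to be above background. Under that rule 1 was higher for P3 minus P1 and 0 for P2 minus P1, as in the deposited values (0). At 4-fold, 1 was higher for P3 minus P2. For P4 minus P3, 1 was lower with the mean over probes (Cd80) and 1 with correction by neighbouring spots (Ptpn11).

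Counts of all genes at least 2-fold apart moved by over 1.5 times in 59 of 132 cases. They are given as higher and lower, beside 557 and 1269 for P4 minus P3, 628 and 453 for P4 minus P2, 715 and 233 for P4 minus P1, 1487 and 786 for P3 minus P2, 1759 and 984 for P3 minus P1, and 616 and 327 for P2 minus P1. In the same order of pairs, the 4-fold threshold gave 92 and 512, 188 and 138, 305 and 56, 706 and 146, 943 and 203, and 240 and 91. The authors' deposited values gave 288 and 631, 382 and 275, 420 and 97, 842 and 392, 1045 and 499, and 393 and 208. Normexp gave 308 and 744, 335 and 236, 408 and 74, 952 and 480, 592 lower for P3 minus P1, and 345 and 169. No filter and no floor gave 1279 and 1955, 1171 and 1080, 1269 and 877, 1631 lower for P3 minus P2, 1945 lower for P3 minus P1, and 1228 and 877. Genes above background on both arrays gave 800 lower for P4 minus P3, 403 and 113 for P4 minus P1, 896 higher for P3 minus P2, 973 higher for P3 minus P1, and 389 and 216 for P2 minus P1. Correction by neighbouring spots gave 347 and 2297 for P4 minus P3, 2815 and 400 for P3 minus P2 and 2868 and 554 for P3 minus P1, so that the share of higher calls was 13.1%, 87.6% and 83.8%, against 30.5%, 65.4% and 64.1%. Its centred version gave 373 lower for P4 minus P1. The stricter rules keep fewer genes by construction, and the cause of the other changes was not tested. Signal over background limits Pdcd1lg2 in P1 and the dim Cd80 probes.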
